A study of Homo sapiens with 9 samples.

Results

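The 10 genes described here encode amino acid transporters of the plasma membrane: SLC3A2, SLC7A5, SLC7A11, SLC1A5, SLC1A4, SLC38A2, SLC38A1, SLC7A1, SLC6A9 and SLC43A1. They were taken as a named list, by symbol, from 60230 genes in tables of RNA sequencing of NCI-H358, a human cell line established from lung cancer. The list was chosen with earlier results of these data known. All 10 passed the filter on low counts and are among the 17307 genes tested. The series concerns acquired resistance to sotorasib, a targeted cancer drug, in culture. Its 3 states are untreated parental NCI-H358 cells, which the drug affects; NCI-H358-R, a resistant derivative, without sotorasib (off drug); and NCI-H358-R profiled 4 days after dosing with 250 nM sotorasib (on drug). NCI-H358-R was made by keeping cells in 250 nM sotorasib for about 2 months and was otherwise grown in it. The time the off-drug cells spent without sotorasib is not stated, nor whether the derivative is a clone. Each state has 3 libraries, described as biological replicates. Nothing says that these were separate cultures, and p-values then measure only the spread among the libraries, part of which may be technical.

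Amino acid transporters set how fast a cell can take up the building blocks of protein, nucleotides and glutathione. Some are exchangers: SLC3A2, a single-pass heavy chain also known as CD98, carries light chains to the surface, among them SLC7A5 (LAT1), which brings in leucine and other large neutral amino acids, and SLC7A11 (xCT), which brings in cystine against glutamate. Many of these genes are known targets of ATF4, the transcription factor that is translated when eIF2alpha is phosphorylated in amino acid shortage, and tumour cells often express SLC7A5, SLC3A2 and SLC1A5 at high levels.

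Libraries held 25698500 to 34727826 estimated counts. In each state 8 of 10 lung epithelial markers stood at 10 CPM (the usual scaling of counts by library size) or more, led by keratin genes, while the surfactant gene SFTPB was at 0 in every library. Markers of other cell types were low in sum but moved between states. The 8 fibroblast markers summed to 27 to 31.1 CPM in parental cells, to 17.9 to 18.9 CPM without sotorasib and to 126 to 158 CPM with it, led there by LUM; COL3A1 was at 0 in all parental and off-drug libraries. The 8 leukocyte markers summed to 60.7 to 70.6, 74.3 to 82 and 9.65 to 10.8 CPM, nearly all of it CD68 in the first 2 states; CD3E was at 0 in parental and off-drug libraries. The 8 endothelial markers summed to 38 to 44.8, 70.1 to 71.3 and 24.9 to 31.2 CPM. Their part in the results below was not tested. In bulk RNA, fewer cells of a type and less RNA per cell cannot be told apart.

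All 10 transporters were lower on drug than off drug in NCI-H358-R, and 9 of them at least 2-fold. The fall was largest for SLC7A11 (4.43-fold) and smallest for SLC38A1 (1.74-fold), with a median log2 fold change of -1.38 against 0.016 over all genes tested. How many reached 2-fold depended on the scaling: on log2(TPM + 1) SLC1A4 (-0.92), SLC1A5 (-0.91), SLC6A9 (-0.90) and SLC38A1 (-0.79) did not, and with library size only SLC6A9 (-0.84) and SLC38A1 (-0.55) did not and SLC38A2 was at the mark (-1). Of all genes tested, 31.2% were called lower in this comparison, 31.4% higher and 62.6% in either direction, and 11.3% were called lower by at least 2-fold. A gene is called where edgeR's quasi-likelihood test gave it an adjusted p under 0.05, with Benjamini-Hochberg adjustment across the genes tested. Libraries of the 2 states did not overlap for any of the 10, which held for 67.6% of all genes. The resistant cells off drug, by contrast, were not uniformly different from parental cells: 3 transporters were higher (SLC38A1, SLC38A2 and SLC7A1), 3 lower (SLC7A5, SLC3A2 and SLC6A9) and 4 were not called, against 28.4 and 26.6% of all genes called higher and lower and 55% in either direction. None of the 10 was lower by at least 2-fold, against 9.73% of all genes. Libraries did not overlap for 6 of the 10, against 61.9% of all genes. On drug against parental cells, 8 were lower and 1 higher, SLC38A1, against 32.9 and 33.4% of all genes and 66.3% in either direction, and 9 did not overlap, against 69% of all genes. Parental cells under sotorasib were not profiled, so drug and cell line cannot be told apart there. The comparisons share libraries, so their values are given side by side and were not correlated. The 10 genes were chosen with earlier results of these data known. Their counts beside the shares of all genes are therefore a description, not a test.

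In TPM (transcript abundance scaled by length and library), which can be compared between genes because of that scaling, the 10 genes summed to 917 ± 57.8 in parental cells, 877 ± 78.7 off drug and 418 ± 59.7 on drug (SD, n = 3 each). The on-drug sum was 0.477 of the off-drug sum and did not overlap it (two-sided exact permutation p = 0.1, the smallest that 3 against 3 libraries can give; adjusted p = 0.15 over 3 comparisons). Parental and off-drug sums overlapped (exact permutation p = 0.7). Of all counts, the 10 genes took between 0.294 and 0.319% in parental cells, between 0.256 and 0.287% off drug and between 0.116 and 0.138% on drug.

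The order of the levels was much alike in the 3 states. SLC3A2 was highest in each, at 369 ± 47.4, 276 ± 23.4 and 125 ± 20.4 TPM, and SLC7A5 second, at 257 ± 18.6, 185 ± 18.7 and 85.7 ± 14.2 TPM. SLC1A5 and SLC38A2 followed, and their libraries overlapped in each state. SLC7A5 stood clear of this pair in parental libraries, while off drug and on drug it overlapped both genes of the pair. A wide step separated these 4 from SLC38A1, at 22.4 ± 4.89, 51.7 ± 5.29 and 29.7 ± 4.6 TPM. SLC7A1 came next, at 12.4 ± 2.56, 18.2 ± 1.91 and 6.4 ± 0.921 TPM. SLC7A11 did not differ from it in parental libraries beyond their spread, at 11.8 ± 2.54 TPM, and stood at 11.1 ± 1.22 off drug. SLC1A4 and SLC6A9 overlapped each other near 5 TPM in parental and off-drug cells. On drug SLC1A4, SLC7A11 and SLC6A9 lay together at 2.46 ± 0.309, 2.45 ± 0.201 and 2.21 ± 0.501 TPM. SLC43A1 was lowest throughout, under 1.1 TPM in every library.

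**Figure D1:**
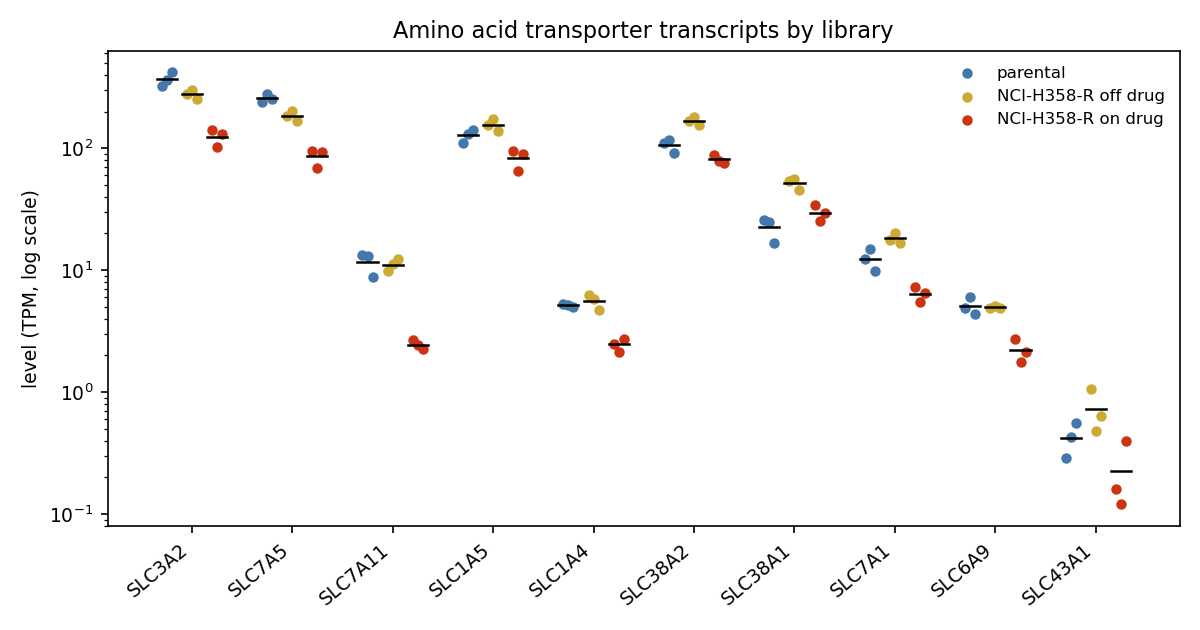
Level of each of the 10 transporters in TPM (log scale) in every library, as points, with a bar at the mean of 3 libraries per state. The on-drug points lie below the off-drug points for all 10 genes, and SLC38A1, SLC38A2 and SLC7A1 stand higher off drug than in parental cells.

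The heavy chain and its light chains are taken first. SLC3A2 (ENSG00000168003.18, chromosome 11, 62856102 to 62888875, plus strand; all positions are GENCODE release 29 on GRCh38, matched by identifier without version) is the chain that SLC7A5 and SLC7A11 need to reach the membrane. On the scale of CPM with TMM factors, used for all tests, it was measured at 670.1, 710.3 and 879.2 in parental libraries, 503.5, 521.3 and 485.2 off drug and 206.8, 167.8 and 202.8 on drug. The 3 states did not overlap and stepped down in that order. SLC3A2 fell by 0.58 ± 0.10 (log2 fold change ± SE) off drug against parental (adjusted p = 0.00021), by 1.39 ± 0.11 on drug against off drug (adjusted p = 1.4e-08) and by 1.97 ± 0.11 on drug against parental (adjusted p = 2.2e-10).

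SLC7A5, the leucine exchanger (ENSG00000103257.9, chromosome 16, 87830023 to 87869488, minus strand), had the most counts of the 10. It was measured at 1330, 1458 and 1379 CPM in parental libraries, 916.1, 953.7 and 894.3 off drug and 356.3, 296.3 and 371.9 on drug. As for its heavy chain, each state was separate from the others. SLC7A5 fell by 0.59 ± 0.09 off drug (adjusted p = 3.7e-05), a further 1.43 ± 0.09 on drug against off drug (adjusted p = 1.4e-09) and by 2.02 ± 0.09 on drug against parental (adjusted p = 2.4e-11). In the plane of the first 2 changes, SLC3A2 was the nearest to SLC7A5 of 10387 genes whose average log2 CPM reached 3. SLC7A5 was likewise the nearest to SLC3A2, at a distance of 0.0462 log2 units. This distance is smaller than the standard errors of the changes of either gene.

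SLC7A11, the cystine and glutamate exchanger (ENSG00000151012.13, chromosome 4, 138164097 to 138242349, minus strand), was measured at 79.61, 78.66 and 62.06 CPM in parental libraries, 57.11, 70.99 and 65.93 off drug and 14.96, 15.29 and 13.58 on drug. Parental and off-drug libraries overlapped, and the on-drug libraries lay far below both. The off-drug difference from parental was -0.18 ± 0.11 (adjusted p = 0.15), while SLC7A11 fell by 2.15 ± 0.11 on drug against off drug (adjusted p = 1.6e-10) and by 2.33 ± 0.11 against parental (adjusted p = 5e-11). Only 3.39% of genes had a lower log2 fold change on drug against off drug. Parental replicate 3 held the lowest parental value, and without it the off-drug difference was -0.29 (adjusted p = 0.016); with upper-quartile factors it was -0.27 (adjusted p = 0.038). An antisense gene, SLC7A11-AS1, overlaps the locus with 1.01% as many counts.

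**Figure D2:**
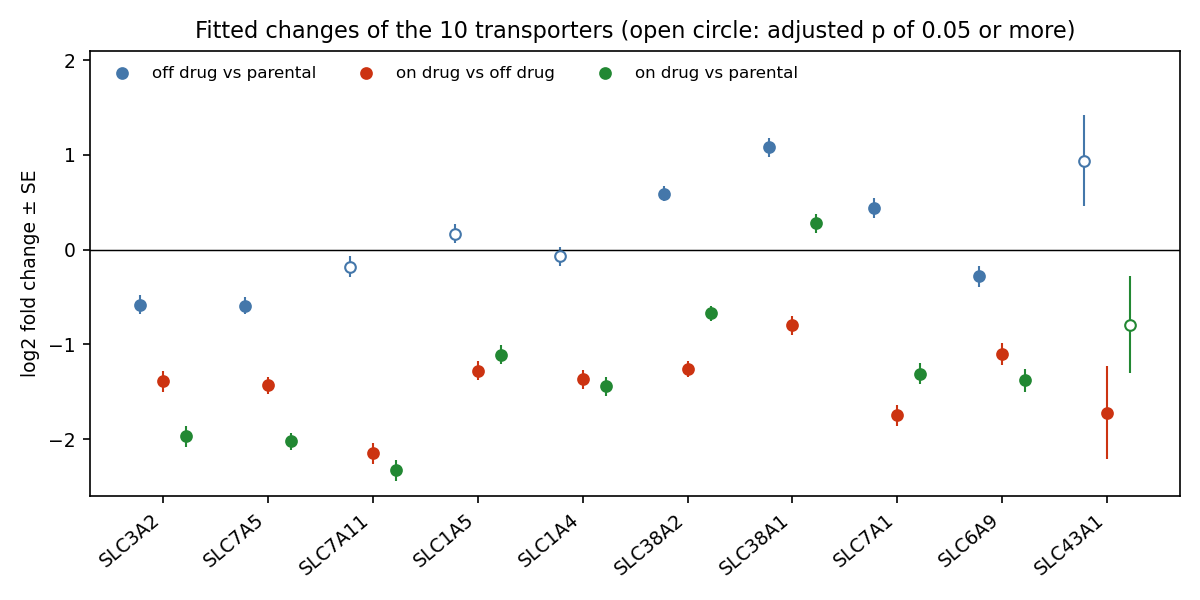
Fitted log2 fold changes (y axis, ± SE) of the 10 transporters for the 3 comparisons, with open circles where the adjusted p was 0.05 or more. The on drug vs off drug points run from -0.80 for SLC38A1 to -2.15 for SLC7A11, all below 0, whereas those of off drug vs parental lie on both sides of 0.

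Ratios within a library do not depend on the scaling between libraries, though in TPM they do depend on the scaling for length. The log2 ratio of SLC7A5 to SLC3A2 in TPM was -0.52 ± 0.19 in parental cells, -0.58 ± 0.02 off drug and -0.54 ± 0.04 on drug (SD, n = 3), and on drug it lay between -0.58 and -0.49 while the levels of both were under 50% of those off drug. The difference of 0.04 on drug against off drug was within the spread of the libraries (exact permutation p = 0.3). The ratio of SLC7A11 to SLC3A2 was -4.99 ± 0.51 in parental cells, -4.63 ± 0.24 off drug and -5.66 ± 0.24 on drug, and that of SLC7A11 to SLC7A5 was -4.47 ± 0.34, -4.06 ± 0.26 and -5.12 ± 0.27. On drug against off drug these ratios dropped by 1.03 and by 1.06, with no overlap. Each of these 2 differences had the smallest exact permutation p that the design allows, p = 0.1, and adjusted p = 0.214 over 15 ratio comparisons. With 1 TPM added to each value the drops were 0.66 and 0.70. Fitted on counts, the fall of SLC7A11 exceeded those of SLC3A2 and SLC7A5 by less than 1.03 and 1.06. The fitted changes of the 3 genes were -2.15 ± 0.11, -1.39 ± 0.11 and -1.43 ± 0.09. On drug against parental the ratios differed by -0.67 and -0.65 and overlapped, parental replicate 3 lying within the range of the on-drug libraries at -5.57 and -4.84 (exact permutation p = 0.2, adjusted p = 0.333 for each).

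**Figure D3:**
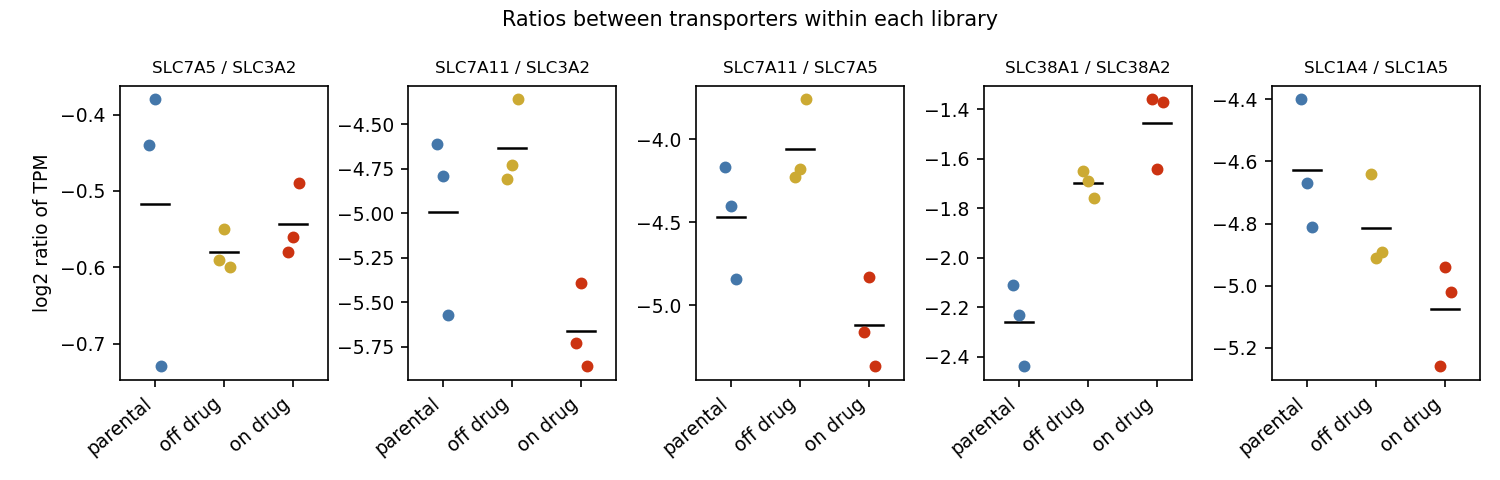
Log2 ratio of TPM between 5 pairs of transporters in every library (points) with the mean of 3 libraries per state (bars); each panel has its own axis. The off-drug and on-drug ratios of SLC7A5 to SLC3A2 overlap, while those of SLC7A11 to SLC3A2 and to SLC7A5 do not.

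The neutral amino acid exchangers of the SLC1 family fell on drug without a call off drug. SLC1A5, ASCT2, which takes up glutamine (ENSG00000105281.12, chromosome 19, 46774883 to 46788594, minus strand), was measured at 331.8, 363.8 and 405.1 CPM in parental libraries, 405.3, 432.9 and 398.6 off drug and 182.1, 147.6 and 179.8 on drug. Parental and off-drug values overlapped (0.17 ± 0.10, adjusted p = 0.15), a difference that was called without parental replicate 3 (0.25, adjusted p = 0.04). SLC1A5 fell by 1.28 ± 0.10 on drug against off drug (adjusted p = 1.2e-08) and by 1.11 ± 0.10 against parental (adjusted p = 5e-08).

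SLC1A4, ASCT1, which exchanges serine, alanine, threonine and cysteine (ENSG00000115902.11, chromosome 2, 64988477 to 65023865, plus strand), was lower in level. It was measured at 24.07, 23.48 and 24.91 CPM in parental libraries, 23.73, 23.83 and 21.31 off drug and 8.526, 7.886 and 10.27 on drug. Off drug it overlapped parental cells (-0.07 ± 0.10, adjusted p = 0.55; on log2(TPM + 1) the difference had the opposite sign, 0.09), and on drug it fell by 1.37 ± 0.10 against off drug (adjusted p = 1.4e-08) and by 1.44 ± 0.10 against parental (adjusted p = 6e-09). In TPM the log2 ratio of SLC1A4 to SLC1A5 was -4.81 ± 0.15 off drug and -5.07 ± 0.17 on drug, without overlap (exact permutation p = 0.1, adjusted p = 0.214). With 1 TPM added to each value this difference was -0.01. The changes fitted on counts were -1.37 ± 0.10 for SLC1A4 and -1.28 ± 0.10 for SLC1A5. These changes differed by less than either standard error.

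The sodium-coupled transporters SLC38A1 and SLC38A2, which carry glutamine and other small neutral amino acids, were higher off drug than in parental cells. SLC38A1, SNAT1 (ENSG00000111371.16, chromosome 12, 46183063 to 46270017, minus strand), was measured at 141.8, 137.9 and 112.1 CPM in parental libraries, 277.8, 295.6 and 254.8 off drug and 169.9, 143.8 and 161.1 on drug. The off-drug libraries stood apart above both other states, and the on-drug libraries lay just above the parental ones. SLC38A1 rose by 1.08 ± 0.10 off drug (adjusted p = 2.1e-07), the only one of the 10 to rise at least 2-fold, against 7.49% of all genes. It fell by 0.80 ± 0.10 on drug against off drug (adjusted p = 3.2e-06). On drug it remained above parental by 0.28 ± 0.10 (adjusted p = 0.022), but this call was lost without parental replicate 3 (0.18, adjusted p = 0.094), without on-drug replicate 1 (0.21, adjusted p = 0.1) and without on-drug replicate 3 (0.26, adjusted p = 0.069).

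SLC38A2, SNAT2, the family member induced when cells are starved of amino acids (ENSG00000134294.14, chromosome 12, 46358189 to 46372867, minus strand), was measured at 367, 383.3 and 344.3 CPM in parental libraries, 535.3, 577.7 and 529.3 off drug and 238.1, 227.2 and 221.7 on drug. Its 3 states did not overlap, with off drug highest and on drug lowest. SLC38A2 rose by 0.59 ± 0.08 off drug (adjusted p = 8.5e-06), fell by 1.26 ± 0.08 on drug against off drug (adjusted p = 9e-10) and fell by 0.67 ± 0.08 on drug against parental (adjusted p = 1.1e-06). SLC38A1 gained on SLC38A2 in TPM: the log2 ratio was -2.26 ± 0.17 in parental cells, -1.70 ± 0.06 off drug and -1.46 ± 0.16 on drug. Each pair of states differed without overlap (exact permutation p = 0.1, adjusted p = 0.214 for each). In TPM, off drug and on drug were only just apart, with off-drug replicate 1 at -1.65 and on-drug replicate 2 at -1.64. The mean TPM ratios of these states differed by 0.24. The changes fitted on counts were further apart than that, at -0.80 ± 0.10 for SLC38A1 and -1.26 ± 0.08 for SLC38A2.

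SLC7A1, CAT1, the main carrier of arginine and lysine (ENSG00000139514.13, chromosome 13, 29509410 to 29595688, minus strand), was measured at 96.52, 112 and 79.49 CPM in parental libraries, 125.6, 138.1 and 127.7 off drug and 41.95, 34.64 and 39.85 on drug. It was highest off drug and lowest on drug, with no overlap between states. SLC7A1 rose by 0.44 ± 0.11 off drug (adjusted p = 0.0029) and fell by 1.75 ± 0.11 on drug against off drug (adjusted p = 1.9e-09). Against parental cells it fell by 1.31 ± 0.11 (adjusted p = 4.6e-08).

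SLC6A9, GlyT1, a glycine transporter (ENSG00000196517.13, chromosome 1, 43991500 to 44031467, minus strand), was measured at 13.15, 13.62 and 14.15 CPM in parental libraries, 11.03, 11.01 and 11.72 off drug and 5.989, 4.441 and 5.304 on drug. The states did not overlap, and SLC6A9 fell by 1.10 ± 0.12 on drug against off drug (adjusted p = 6.6e-07) and by 1.38 ± 0.12 against parental (adjusted p = 3.7e-08). The off-drug fall of 0.28 ± 0.11 had an adjusted p = 0.049 and was not called in 11 of 20 alternative analyses (for example -0.03 on log2(TPM + 1), adjusted p = 0.86, and without parental replicate 3, adjusted p = 0.11; leaving out any of the other parental or off-drug libraries also lost it). The genes CCDC24 and AL139220.2 overlap SLC6A9 on the opposite strand with 28.8 and 19.8% as many counts. The overlap is of whole gene spans, and the percentages are total counts of those genes, not shared reads. The strand setting of the counting is not stated and shared reads were not examined, so the level of SLC6A9 is uncertain.

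SLC43A1, LAT3, which carries branched-chain amino acids without a heavy chain (ENSG00000149150.9, chromosome 11, 57484534 to 57515786, minus strand), rested on few reads. Its estimated counts were 13, 12 and 32 in parental libraries, 47, 21 and 40.001 off drug and 10, 9 and 27 on drug. Off-drug CPM values were all above the on-drug ones (0.8598 or more, against 0.6986 or less), and SLC43A1 fell by 1.72 ± 0.49 on drug against off drug (adjusted p = 0.006). Without on-drug replicate 3, which had the most counts of its state, the change was -2.38 (adjusted p = 0.0018), and over all 17 alternatives that measured it the change ran from -2.38 to -1.42. Its differences from parental cells, 0.94 ± 0.48 off drug (adjusted p = 0.11) and -0.79 ± 0.51 on drug (adjusted p = 0.19), were not called. The first was called without parental replicate 3 (1.56, adjusted p = 0.02) and the second without on-drug replicate 3 (-1.46, adjusted p = 0.037).

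By the same distance, the genes nearest to the other members were RHOF for SLC7A11 (0.0426), STK32C for SLC1A5 (0.00811), PLEK2 for SLC1A4 (0.0117), LINC01002 for SLC38A2 (0.0167) and EIF5A2 for SLC38A1 (0.00906). Those of the remaining members were GARS1 for SLC7A1 (0.0469), PCDH1 for SLC6A9 (0.0384) and NPC1 for SLC43A1 (0.00845). After SLC3A2, the nearest to SLC7A5 were EIF4EBP1 (0.0911) and ORAI3 (0.0952). Distances were taken over 9 libraries in 3 states, and both changes share the off-drug libraries. Each nearest distance is smaller than the standard errors of that member's changes, which were 0.48 and 0.49 for SLC43A1. Which gene came nearest is therefore not settled by these data. SLC43A1 itself, at an average log2 CPM of -0.259, lay below the minimum of 3 set for neighbours.

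Without scaling factors, using library size only, 68.5% of calls on drug against off drug were higher, against 50.1% with TMM factors, and the median over all genes moved from 0.02 to 0.27. With library size only the 10 transporters were all called lower, with changes from -0.55 for SLC38A1 to -1.89 for SLC7A11, or -0.82 and -2.16 relative to the median of 0.27. On log2(TPM + 1) the share of higher calls was 64% and the median 0.16. There SLC43A1 was too low to be measured and the other 9 were called lower, from -0.79 for SLC38A1 to -1.81 for SLC7A11, or -0.95 and -1.97 relative to the median. On drug against parental the share of higher calls was 64.3% with library size only and 69.7% on log2(TPM + 1), against 50.4%, with 8 transporters called lower and 1 higher in each. SLC38A1 on drug stood above parental by 0.26 relative to the median with library size only and by 0.13 on log2(TPM + 1). Off drug against parental it was 64.6% on log2(TPM + 1), against 51.6%.

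Sequences near the annotated starts of these genes were searched for 3 motifs tied to known regulators, as a description. RefSeq windows of 250 bases before to 50 after a start (GRCh38.p14) were at hand for 9 of the 10 genes, as 16 windows including alternative starts; SLC7A11 was not among them. The motif of ATF4, the amino acid response element TGATGNAAN, was found on either strand in 5 of 16 windows, each of a different gene, and in 3.61% of all 35116 windows. The antioxidant response element of NRF2, TGACNNNGC, was found in 4 of 16 and in 13.3% of all, and the E-box CACGTG, bound by MYC and other factors, in 3 of 16 and in 7.26% of all. No 2 of the matches in these windows overlapped. The amino acid response element matches are shown with up to 10 flanking bases, 5′ to 3′ on the gene's strand, with the match in capitals:
SLC3A2: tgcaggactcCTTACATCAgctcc
SLC1A4: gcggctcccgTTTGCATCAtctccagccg
SLC1A5: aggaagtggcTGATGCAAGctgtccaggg
SLC7A1: ggcgcactgcTGATGAAACctggcgccgg
SLC38A1: cagacccgaaTGATGAAAAgggatcagct
The stretch of SLC3A2 is at chr11:62881725-62881748 (plus strand) and that of SLC1A4 at chr2:64989381-64989409 (plus strand); in both the motif reads on the opposite strand, as TGATGTAAG and TGATGCAAA. The others are at chr19:46784893-46784921 (SLC1A5), chr13:29595663-29595691 (SLC7A1) and chr12:46266502-46266530 (SLC38A1), all on the minus strand. With the start base counted as 0, the matches begin at 36, -8, -97, 7 and -4. The windows matched in SLC3A2, SLC1A4, SLC1A5 and SLC38A1 lie inside the gene spans given above, not at their 5′ ends. Those of SLC1A5 and SLC38A1 belong to 1 of several annotated starts. A match describes the letters in a window and shows no binding. The 10 genes were chosen with earlier results of these data known, and many are known ATF4 targets. The shares of windows with a match therefore do not test a regulator.

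Counts in the gene lists that follow stand beside the shares of all genes tested: on drug against off drug 31.4% were called higher and 31.2% lower, and off drug against parental 28.4% and 26.6%. The lists too were chosen with earlier results of these data known, so their counts are a description. Of 28 further plasma membrane transporters, 17 were too low to test. Of the 11 tested, 5 rose (45.5%) and 3 fell (27.3%) on drug against off drug, with a median of 0.38. The glutamate transporter SLC1A1 (from 25.4 ± 1.81 to 9.92 ± 0.366 CPM, adjusted p = 3.7e-09) and the taurine transporter SLC6A6 (from 117 ± 5.06 to 44.6 ± 7.02 CPM, adjusted p = 2.5e-08) fell. SLC7A6, another light chain of SLC3A2 that exchanges cationic for neutral amino acids, rose from 14.2 ± 0.915 to 30.2 ± 1.29 CPM (1.09 ± 0.13, adjusted p = 1.8e-06). SLC43A2, LAT4, a relative of SLC43A1, rose from 4.01 ± 0.606 to 8.54 ± 1.75 CPM (adjusted p = 4.6e-05).

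Most transporters of lysosomes and mitochondria rose. Of 15 tested, 11 rose (73.3%, against 31.4% of all genes) and 3 fell (20%) on drug against off drug, with a median of 0.46. The lysosomal cystine exporter CTNS rose from 2.57 ± 0.249 to 8.68 ± 1.02 CPM (1.75 ± 0.18, adjusted p = 5.5e-07), and SLC38A7, a lysosomal glutamine exporter, rose by 2.03 ± 0.17. SLC38A9, the arginine sensor of the lysosome, rose in both steps and stood 1.27 ± 0.11 above parental on drug (adjusted p = 3.5e-08). SFXN1, the mitochondrial serine carrier, fell by 0.69 ± 0.07. Off drug against parental, 5 of these 15 rose (33.3%, against 28.4% of all genes) and 6 fell (40%, against 26.6%).

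**Figure D4:**
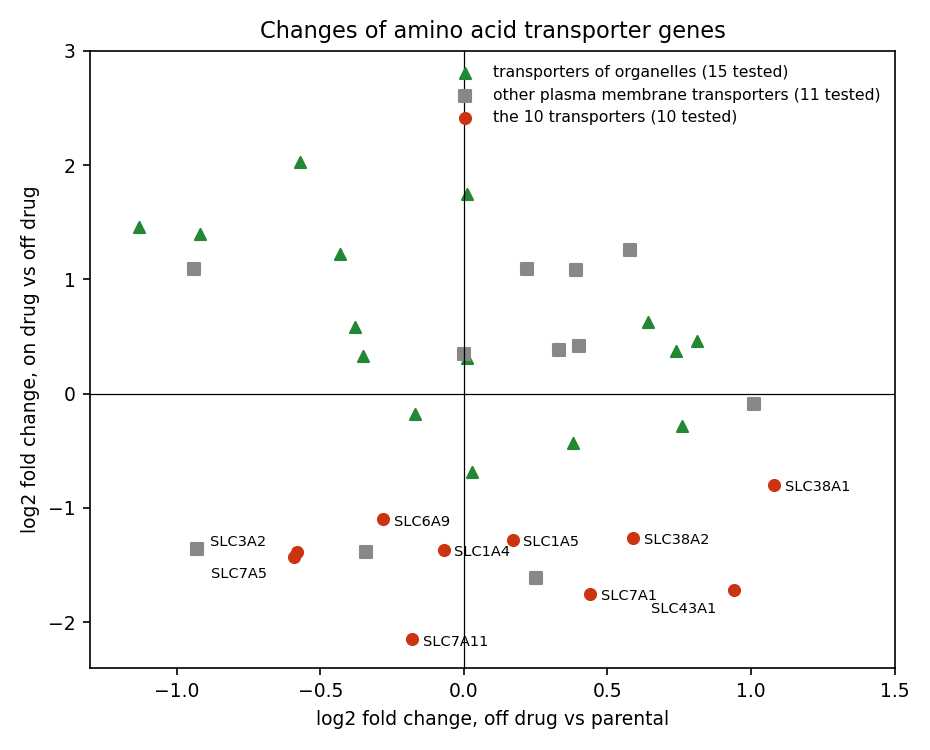
Log2 fold changes off drug vs parental (x axis) and on drug vs off drug (y axis) of the 10 transporters, 11 further plasma membrane transporters and 15 organelle transporters, a point per gene. The 10 lie below 0 on the y axis, SLC3A2 and SLC7A5 almost on one spot, while 11 of 15 organelle transporters rose; both axes share the off-drug libraries, so the slope between them is not read.

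Known regulators of these genes, a list that holds activators and also inhibitors such as TRIB3, mostly had lower transcript levels on drug. Counts in this list therefore give no expected direction for the transporters. A part of any regulator in the transporter changes was not tested. Of 18 regulators measured, 12 fell (66.7%, against 31.2% of all genes) and 2 rose (11.1%) on drug against off drug (median -0.89). Off drug against parental 11 rose (61.1%, against 28.4% of all genes) and 2 fell (11.1%; median 0.24). ATF4 transcripts were measured at 598.3, 591.5 and 693.2 CPM in parental libraries, 676.5, 668.3 and 723.4 off drug and 286.8, 312.8 and 305.4 on drug. The first 2 states overlapped and the third lay below both (on drug against off drug -1.19 ± 0.08, adjusted p = 4.6e-09). DDIT3 (CHOP) fell by 2.94 ± 0.10 and TRIB3, a feedback inhibitor of ATF4, by 2.97 ± 0.09. CEBPG, a dimer partner of ATF4, rose by 0.62 ± 0.07 off drug and fell by 1.87 ± 0.08 on drug.

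MYC is a transcription factor known to raise SLC7A5 and SLC1A5. It was measured at 30.98, 33.42 and 34.29 CPM in parental libraries, 89.69, 84.54 and 80.02 off drug and 45.14, 43.09 and 45 on drug, separate in all states and highest off drug. It rose by 1.37 ± 0.08 off drug (adjusted p = 1.4e-09) and fell by 0.93 ± 0.08 on drug against off drug (adjusted p = 4.1e-08). On drug MYC stood above parental by 0.43 ± 0.08 (adjusted p = 0.00017), while SLC7A5 and SLC1A5 stood below parental. NFE2L2, the NRF2 gene, a known regulator of SLC7A11, was at 74.55 to 81.75 CPM off drug and 79.94 to 84.76 on drug (0.10 ± 0.07, adjusted p = 0.27). These are transcript levels, and the amount and activity of NRF2 protein were not measured.

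Enzymes that make or use the same amino acids were mostly lower on drug too. Of 9 serine and glycine synthesis genes, 7 fell (77.8%) and 2 rose (22.2%; median -1.51), with PHGDH, the first enzyme of serine synthesis, at -2.18 ± 0.09 and PSAT1 at -2.15 ± 0.08. Of 14 genes of glutamine and glutamate metabolism, 8 fell (57.1%) and 2 rose (14.3%; median -0.59). ASNS, asparagine synthetase, fell by 3.64 ± 0.08. GPT2, a transaminase, fell from 231 ± 6.3 to 54.2 ± 3.89 CPM and GLUD1, glutamate dehydrogenase, from 491 ± 35 to 141 ± 12.1 CPM. Of 12 genes of cystine use and glutathione, 8 fell (66.7%) and 2 rose (16.7%; median -0.59). CHAC1, which breaks down glutathione, fell by 3.64 ± 0.11. The genes of glutathione synthesis did not move as one. GCLC, the catalytic subunit of its first enzyme, rose by 0.74 ± 0.08. GCLM, the partner subunit, fell by 0.46 ± 0.09 (adjusted p = 4e-04) and the synthetase gene GSS by 0.20 ± 0.08 (adjusted p = 0.04). The peroxidase gene GPX4 differed by 0.01 ± 0.11 (adjusted p = 0.96).

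The last list holds genes of amino acid sensing and mTORC1, the kinase complex that leucine and arginine activate. Of 30, 10 rose (33.3%) and 7 fell (23.3%) on drug against off drug (median 0.04), near the 31.4 and 31.2% of all genes. SESN2, a leucine sensor and ATF4 target, rose by 0.88 ± 0.08 off drug (adjusted p = 1.1e-07) and fell from 68.8 ± 2.61 to 9.71 ± 0.454 CPM on drug (-2.82 ± 0.08, adjusted p = 1.9e-13). The arginine sensor CASTOR1 fell by 1.21 ± 0.15, while its relative CASTOR2 rose by 1.18 ± 0.13.

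**Figure D5:**
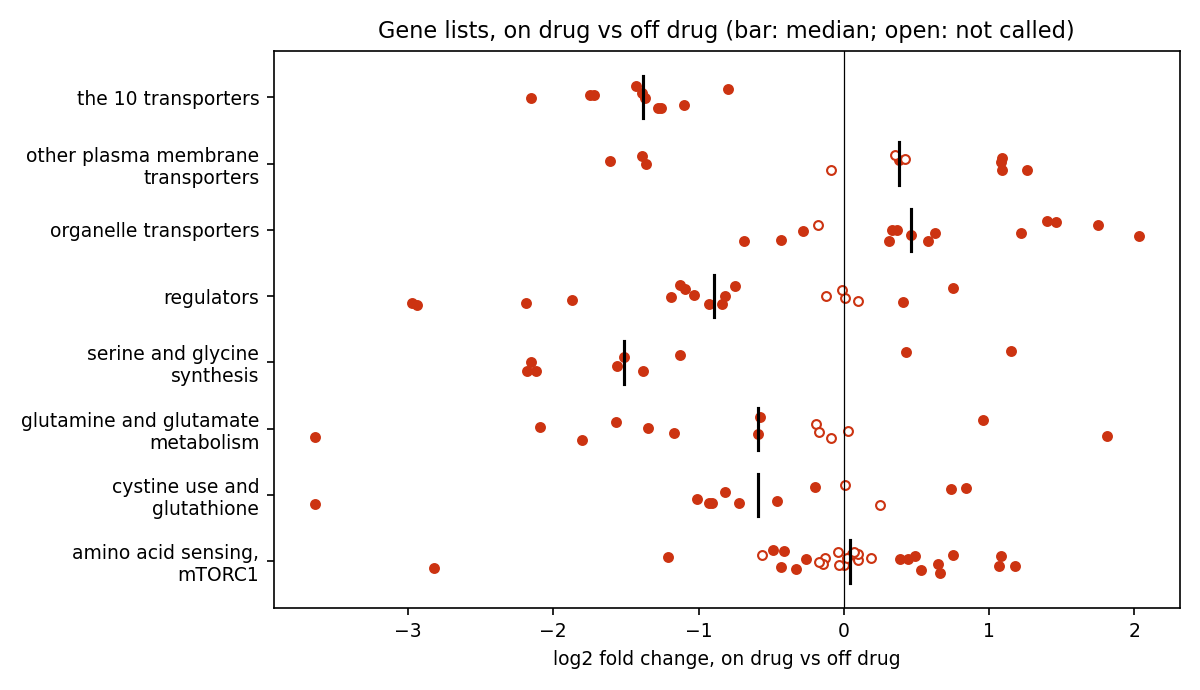
Log2 fold changes on drug vs off drug (x axis) of the tested genes of 8 lists, a point per gene, with a bar at each list's median and open points for genes not called. The medians run from -1.51 for serine and glycine synthesis and -1.38 for the 10 transporters to 0.46 for organelle transporters.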

How the data were processed

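The submitters' processing notes name Salmon 0.14.1, bcl2fastq 2.17 and FastQC 0.12.1 as tools and GRCh38.p13 as build, without saying what each did. The authors deposited estimated counts per gene, not whole and not scaled for depth, and TPM values, scaled for length and depth. Per the labels, libraries were oligo(dT)-selected and sequenced as pairs. Estimated counts were rounded and tested with edgeR 4.0.16 in R 4.3.3: 1 model for the 9 libraries, with 1 mean for each state, TMM factors, filterByExpr (minimum count 10, minimum total 15) and 6 residual degrees of freedom. Standard errors are the size of a log2 fold change divided by the root of its F. Symbols came from identifiers without version (60089 of 60230 matched). The members and lists were chosen with earlier results of these data known. All 10 members are named. List genes named were up to 4 per list and comparison, called, with the largest changes and an average log2 CPM of 1 or more. ATF4, NFE2L2, GCLC, GCLM, GSS, GPX4 and SFXN1 fall outside that rule and were chosen after their values were seen. Likeness is the Euclidean distance between fitted changes. Steps were tested on simulated counts. Alternatives were other scalings and filters, DESeq2 1.42.0, limma 3.58.1 (voom, log2(TPM + 1), log2(TPM + 0.1)), a replicate block, fits of just 2 groups, and leaving out each library in turn. No replicates agreed within sampling noise (lowest chi-square per degree of freedom 5.114).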

Additional observations from a re-analysis of the deposited data

How the results depend on the processing

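Of 591 values of single transporters under alternatives, 570 kept their direction and side of the threshold, 14 lost and 5 gained a call, and 2 changed sign: SLC1A4 off drug against parental, not called, became 0.09 and 0.10 on log2(TPM + 1) and log2(TPM + 0.1). The fall of all measured transporters on drug against off drug held in each of the 20 alternatives; SLC43A1 was too low to be measured with a minimum count of 50 or a mean TPM of at least 1. Leaving out each library gave 5 to 8 called transporters off drug against parental and 8 to 9 on drug against parental. In TMM-scaled CPM the summed on-drug level was 0.401 of off drug and 0.361 of parental, against 0.477 and 0.456 in TPM. With 1 TPM added, the log2 ratio differences on drug against off drug were -0.66 (SLC7A11 to SLC3A2), -0.70 (SLC7A11 to SLC7A5) and -0.01 (SLC1A4 to SLC1A5), and against parental -0.29 (SLC7A11 to SLC7A5) and -0.21 (SLC1A4 to SLC1A5); the added 1 pulls ratios of low genes towards 0. Same-numbered libraries did not deviate together (r from -0.034 to 0.135 over 9 pairs, 1 of them above 0.1), so the numbers were not taken as pairs. With the replicate block 5, 10 and 9 transporters were called in the 3 comparisons, and SLC6A9 off drug was not (-0.28, adjusted p = 0.053). In a library, 3 counts correspond to 0.0864 to 0.117 CPM by library size alone, which limits only SLC43A1 here.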
